A study of Mus musculus with 12 samples.

Results

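The genes described here handle purines at the cell surface of RAW264.7, a mouse line of macrophage type: carriers of nucleosides and nucleobases, enzymes that break down extracellular nucleotides, and receptors for adenosine and nucleotides. They were chosen by name, 10 genes in all, of 30464 genes named on the array. Of these, 7 had a probe set that lists no other gene, namely Slc43a3, Slc29a1, Entpd1, Nt5e, Ada, P2ry6 and P2rx4. The only probe set listed for P2rx7 also lists a microRNA, so no value is given for that gene, and Adora2a and Adora2b were not analysed here because no probe set was named for them. The microarrays number 12, 1 per sample, in 4 groups of 3. RAW264.7 cells were cultured for 24 h in normal medium (replicates 2, 3 and 4), in medium that SCR PyMT-41C cells had conditioned (called SCR medium; 1, 3 and 4), in medium from JMJD6-KO PyMT-41C cells (KO medium; 1, 2 and 3), or in SCR medium to which CSH had been added (1, 2 and 4). The labels describe CSH as a blockade of the ANXA-1 receptor, and they give conditioned medium as 50% of the culture medium, the rest being RPMI with 10% FBS. The knockout lies in the cells that made the medium, not in the cells measured, and no group received CSH in normal medium. A group called CSH below is SCR medium with CSH added. A single cell line was used. Because the labels do not name separate cultures, each p-value reflects only how far these arrays scatter, and that scatter may be technical.

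Cells release ATP and UDP when stressed or dying. ATP acts on P2X receptors, which are ion channels, and both nucleotides act on P2Y receptors, which couple to G proteins. CD39, encoded by Entpd1, removes phosphates from ATP and ADP, CD73, encoded by Nt5e, turns the resulting AMP into adenosine, and adenosine deaminase turns adenosine into inosine. Adenosine dampens macrophage activation through receptors that raise cAMP, and it is cleared by uptake through equilibrative carriers such as ENT1, the product of Slc29a1.

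A value below is the log2 RMA signal of an array, or the mean ± SD of a group of n = 3. A difference is a log2 change with the standard error (SE) of a limma fit over 18119 genes. The fit gives each gene a single spread for all 4 groups, so an SE or interval also reflects arrays outside the comparison. A gene counted as changed at a Benjamini-Hochberg adjusted p below 0.05 over all those genes. Macrophage identity was present: 9 of 10 macrophage markers lay above the median of all probe sets on every array, Mertk being the exception. The summed signal of the list ran from 18.62 to 18.78 on the log2 scale over all groups. Signals were summed before taking the log, so the brightest markers, Lyz2 and Cd68, dominate the sum and it says little of the others. Of mammary epithelial markers 2 of 10 passed the filter on low values (Krt8 and Krt14, neither changed in SCR medium), with summed signals from 8.26 to 8.35 and Epcam at group means of 4.64 to 4.76. Fibroblast markers (0 of 4 past the filter) and lymphocyte markers (0 of 7) were not above that background. Of the 9 tested genes of the macrophage list, 2 rose, 4 fell and 3 did not pass in SCR medium (19.3% of all genes rose and 15.8% fell). Csf1r fell by 1.79, Adgre1 by 1.45, Ptprc by 0.50 and Cd68 by 0.15, while Itgam rose by 0.97 and Cd14 by 0.61. The part of these changes in the results below was not tested. In bulk RNA, fewer cells of a type and less RNA per cell cannot be told apart.

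SCR medium against normal medium asks how conditioned medium alters the cells. The 7 measured purine genes each changed, 3 of them higher (Slc43a3, Nt5e and P2rx4) and 4 lower (P2ry6, Entpd1, Slc29a1 and Ada). Over all genes tested 35.2% changed, 19.3% higher and 15.8% lower. The arrays of both groups did not overlap for 6 of the 7, all but P2rx4, as for 43.3% of all genes. The median change of the 7 genes was -0.30, beside 0.02 over all genes. The 7 were picked with results of these arrays known, and Nt5e passed the filter on low values only through its conditioned-medium arrays, so the count is a description.

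**Figure D1:**
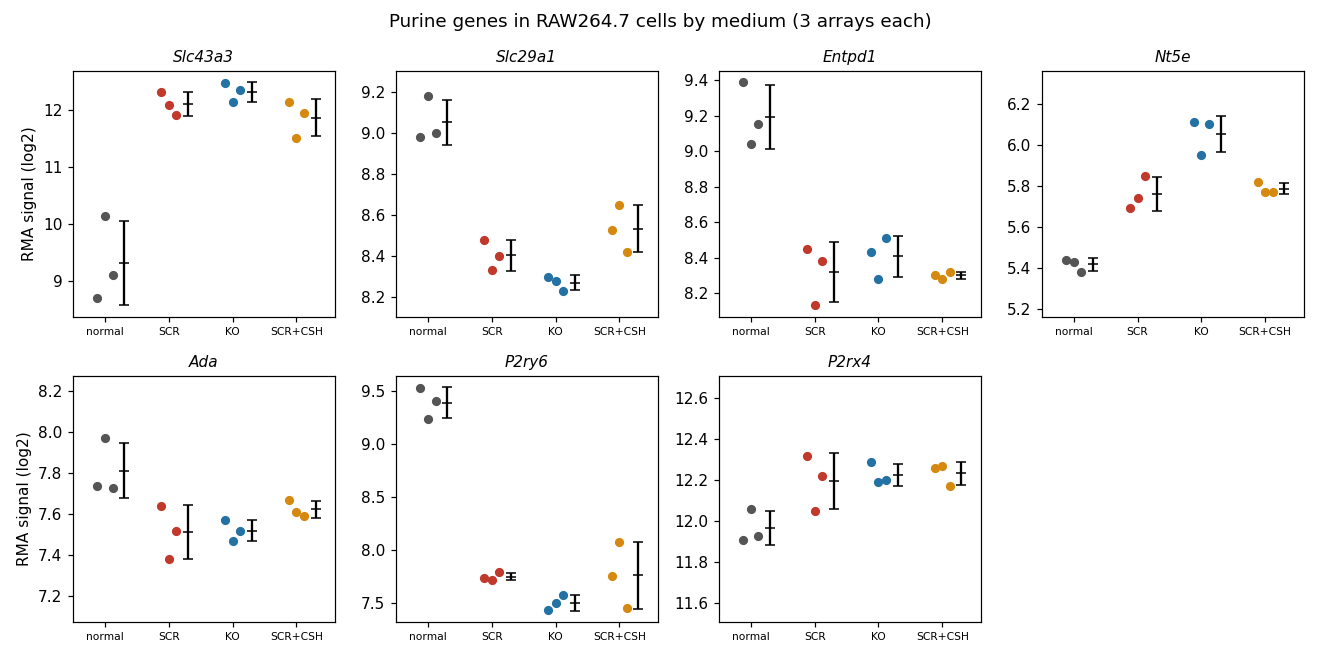
RMA signal (log2, vertical axis, scale differs by panel) of the 7 measured purine genes in 4 media: normal, SCR, KO, and SCR with CSH. Points are arrays, and bars beside them are the mean ± SD of 3. Normal medium stands apart from all conditioned media in every panel but that of P2rx4, where SCR replicate 3 (12.05) lies within the normal range, and Nt5e is highest in KO medium (6.05 ± 0.09).

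Among the carriers, Slc43a3 rose and Slc29a1 fell in conditioned medium. Slc43a3 (chromosome 2, 84936545 to 84958509, GRCm38.p6) encodes an equilibrative carrier of purine nucleobases such as adenine, guanine and hypoxanthine. Its signals were 8.71, 10.15 and 9.10 in normal medium and 12.33, 12.09 and 11.91 in SCR medium. They were 12.48, 12.14 and 12.36 in KO medium and 12.14, 11.52 and 11.96 with CSH. Every conditioned array was above every array of normal medium, and normal replicate 3 was the highest of its group. The mean was 9.32 ± 0.74 in normal medium, the widest spread of any group of the 7 genes, and 12.11 ± 0.21 in SCR medium (log2 change 2.79, SE 0.28, 6.92-fold, adjusted p = 7.95e-06, limma). With single arrays left out the change ran from 2.48, without normal replicate 2, to 3.21, without normal replicate 3. The rise over normal medium was 3.01 (adjusted p = 3e-06) in KO medium and 2.55 (adjusted p = 1.82e-05) with CSH.

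Slc29a1 (chromosome 17, 45585200 to 45599618), the nucleoside carrier ENT1, moved the other way. It read 8.98, 9.18 and 9.00 in normal medium and 8.48, 8.33 and 8.40 in SCR medium. The KO medium arrays read 8.30, 8.28 and 8.23, and those with CSH 8.53, 8.65 and 8.42. No conditioned array reached the lowest array of normal medium. The change was -0.65 (SE 0.07, adjusted p = 2.16e-05) in SCR medium, -0.78 in KO medium and -0.52 with CSH. The order of the means was normal, CSH, SCR and KO medium; neighbours among the conditioned media did not differ beyond the test, and KO medium lay below CSH by 0.26 (SE 0.07, adjusted p = 0.105) with no overlap of arrays. With array weights that difference passed, at adjusted p = 0.0401. Of the other carriers on a list of 8, Slc28a2, a concentrative nucleoside carrier, fell by 0.24 (adjusted p = 0.00447) in SCR medium. It was dim, at 6.10 ± 0.05 in normal and 5.87 ± 0.06 in SCR medium. Slc29a3, the lysosomal carrier ENT3, rose by 0.18 (adjusted p = 0.0477) in SCR medium and by 0.30 (adjusted p = 0.00309) with CSH. In KO medium it stood at 0.04 and did not pass (adjusted p = 0.685). Slc29a2 (-0.06) and Slc28a1 (0.01) did not pass in SCR medium, and Slc29a4 and Slc28a3 did not exceed the filter.

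The enzymes that lead from ATP to inosine changed in different directions. Entpd1 (chromosome 19, 40612366 to 40741602), which encodes CD39, fell and Nt5e (chromosome 9, 88327609 to 88372089), which encodes CD73, rose. The promoters of this pair are shown because the genes act in consecutive steps yet moved apart, with that of P2rx4, a receptor for the ATP that CD39 removes. Each runs from 250 bases before to 50 bases after a start site, 5′ to 3′ on the plus strand of GRCm38.p6, from RefSeq. Capitals mark the short core of the cAMP response element, TGACG, or its reverse complement CGTCA.

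Entpd1 (chr19:40612116-40612415): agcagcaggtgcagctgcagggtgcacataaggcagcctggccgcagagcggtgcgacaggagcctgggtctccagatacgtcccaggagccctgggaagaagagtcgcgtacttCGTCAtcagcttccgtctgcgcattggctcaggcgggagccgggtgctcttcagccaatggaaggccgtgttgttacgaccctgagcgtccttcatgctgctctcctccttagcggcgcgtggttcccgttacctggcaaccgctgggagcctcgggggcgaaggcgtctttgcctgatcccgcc
Nt5e (chr9:88327359-88327658): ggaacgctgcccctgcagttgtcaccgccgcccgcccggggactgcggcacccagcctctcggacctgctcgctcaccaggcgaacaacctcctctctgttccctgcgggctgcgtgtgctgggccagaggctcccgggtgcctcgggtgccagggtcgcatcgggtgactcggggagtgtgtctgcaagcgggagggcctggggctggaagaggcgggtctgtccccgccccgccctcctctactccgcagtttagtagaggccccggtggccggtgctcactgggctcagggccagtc
P2rx4 (chr5:122707294-122707593): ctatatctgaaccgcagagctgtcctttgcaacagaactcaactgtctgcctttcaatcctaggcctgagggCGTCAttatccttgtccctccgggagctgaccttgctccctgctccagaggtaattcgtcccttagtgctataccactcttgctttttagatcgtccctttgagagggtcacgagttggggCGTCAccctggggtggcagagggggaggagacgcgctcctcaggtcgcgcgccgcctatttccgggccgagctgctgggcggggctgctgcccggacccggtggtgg

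The short core occurred once in this Entpd1 window, at position -135 from the start site, and at -178 and -57 in that of P2rx4. In the Nt5e window it did not occur. A window of a further Entpd1 start site (chr19:40659520-40659819) also held it, with a pair of matches to the PU.1 core GAGGAA. Over 32851 promoter windows of 300 bases on both strands, 20.8% held TGACG and 28.3% held GAGGAA, beside 4 and 5 of the 16 windows of 7 of the 10 genes. The full element TGACGTCA (1.79% of windows) and the ATF4 and C/EBP motif TGATGCAA (0.895%) were in none of the 16. The AP-1 motif TGAGTCA (5.2%) was in 1 of the 16, a window of P2rx7, for which no value is given. The E-box CACGTG (7.15%), which overlaps the HIF core ACGTG, was also in 1, a window of Slc29a1. The HIF core (19.6%) was in 3, all of them windows of Slc29a1. That gene held more of the 16 windows than any other, and some of its windows overlap, so the windows do not stand for separate genes. These are letter matches and say nothing of binding. Of the measured genes, Slc43a3 and P2ry6 were not matched in the promoter table.

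Entpd1 read 9.39, 9.04 and 9.15 in normal medium and 8.45, 8.13 and 8.38 in SCR medium. KO medium gave 8.43, 8.28 and 8.51, and CSH 8.30, 8.28 and 8.32. All conditioned arrays were below all arrays of normal medium. The change in SCR medium was -0.87 (SE 0.10, adjusted p = 2.2e-05), a fall of 1.83-fold, with -0.79 in KO medium and -0.89 with CSH. The conditioned media were not ordered beyond their spread: KO and SCR medium differed by 0.09 (95% interval -0.13 to 0.30) and CSH and SCR medium by -0.02 (-0.24 to 0.20).

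Nt5e was dim. Its normal medium arrays read 5.44, 5.43 and 5.38, none above the median of all probe sets on its array (5.4 to 5.52 over the 12 arrays), so it lay near background there. SCR medium gave 5.69, 5.74 and 5.85, KO medium 6.11, 5.95 and 6.10, and CSH 5.82, 5.77 and 5.77. The groups of normal, SCR and KO medium did not overlap with each other. Nt5e rose by 0.34 (SE 0.06, adjusted p = 0.000791) in SCR medium, by 0.64 (adjusted p = 4.08e-06) in KO medium and by 0.37 (adjusted p = 0.00047) with CSH. It entered the fit only through its conditioned-medium arrays, where it was higher. These differences from normal medium and their p-values are therefore a description.

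Ada (chromosome 2, 163726571 to 163750239), adenosine deaminase, fell slightly. It read 7.74, 7.97 and 7.73 in normal medium and 7.64, 7.38 and 7.52 in SCR medium. KO medium gave 7.57, 7.47 and 7.52 and CSH 7.67, 7.61 and 7.59. Arrays of normal medium were above all others. The change was -0.30 (SE 0.08, adjusted p = 0.00914) in SCR medium and -0.29 (adjusted p = 0.0092) in KO medium; with CSH it was -0.19 and did not pass (adjusted p = 0.0793). The only other tested gene on a list of 13 ectoenzymes was Bst1, an ADP-ribosyl cyclase that consumes extracellular NAD, which rose from 10.57 ± 0.08 to 11.38 ± 0.12 in SCR medium (0.82, SE 0.07, adjusted p = 2.51e-06). The further 6 with a probe set of their own, among them Alpl, Dpp4 and Enpp3, did not pass the filter.

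Of the receptors, P2ry6 fell most. P2ry6 (chromosome 7, 100937630 to 100975498) encodes a G protein-coupled receptor for UDP that promotes phagocytosis and chemokine release in myeloid cells. Its signals were 9.53, 9.24 and 9.41 in normal medium and 7.74, 7.72 and 7.79 in SCR medium. KO medium gave 7.43, 7.50 and 7.58, and CSH 7.76, 8.08 and 7.45. The normal and conditioned arrays were far apart, while the CSH arrays overlapped both other conditioned groups. The change was -1.64 (SE 0.12, 3.12-fold, adjusted p = 7.73e-07) in SCR medium, -1.89 (adjusted p = 1.52e-07) in KO medium and -1.63 (adjusted p = 9.39e-07) with CSH. In SCR medium P2ry2, a receptor for ATP and UTP, rose by 0.42 (SE 0.06, adjusted p = 0.000156), and P2ry13, an ADP receptor, stood at 0.21 (adjusted p = 0.224). P2ry13 lay near background, with group means of 5.21 to 5.58, and passed the filter only through conditioned-medium arrays. With that limit, it was 0.37 higher in KO than in normal medium (adjusted p = 0.029). P2ry1, P2ry4 and P2ry12 did not pass the filter, with group means of 3.94 to 4.85.

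P2rx4 (chromosome 5, 122707518 to 122729739), an ATP-gated channel found on lysosomes and the cell surface of macrophages, changed least among the 7 in SCR and KO medium; with CSH the smallest difference was that of Ada, which did not pass. It read 11.91, 12.06 and 11.93 in normal medium and 12.32, 12.05 and 12.22 in SCR medium. KO medium gave 12.29, 12.19 and 12.20, and CSH 12.26, 12.27 and 12.17. SCR replicate 3 lay within the range of normal medium, whereas KO and CSH arrays were all above it. The change was 0.23 (SE 0.07, adjusted p = 0.0268) in SCR medium, 0.26 (adjusted p = 0.0126) in KO medium and 0.27 (adjusted p = 0.0123) with CSH. The call in SCR medium was lost after median centring (adjusted p = 0.102), and in the 6 arrays alone (0.0727). It was also lost on leaving out normal replicate 2 (0.0967), normal replicate 4 (0.0828), SCR replicate 1 (0.109) or SCR replicate 4 (0.0793). The KO call was lost without normal replicate 2 (0.0519) or KO replicate 1 (0.0552), and the CSH call after median centring (0.0594) or without normal replicate 2 (0.0512). Of the other P2X genes, P2rx5 (0.10) and P2rx6 (-0.01) did not pass, and P2rx1, P2rx2 and P2rx3 did not exceed the filter. Adora3, the only adenosine receptor gene with a probe set named here, stood at -0.19 (SE 0.08, adjusted p = 0.0732), from 5.96 ± 0.08 to 5.77 ± 0.12.

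**Figure D2:**
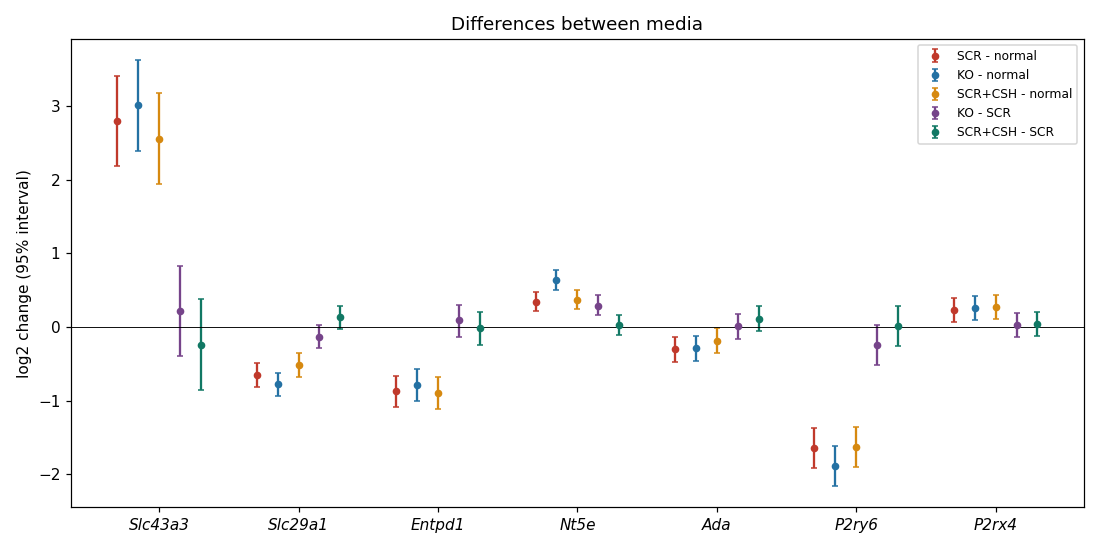
Log2 change (vertical axis) of the 7 purine genes between media, with the 95% interval of the limma fit. The differences from normal medium, for which the 3 comparisons share the normal arrays, lie far from 0 for Slc43a3 (2.55 to 3.01) and P2ry6 (-1.89 to -1.63). Those of KO medium and CSH from SCR medium lie between -0.25 (P2ry6 in KO medium) and 0.29 (Nt5e in KO medium), with wide intervals for Slc43a3. Only the interval of Nt5e in KO medium leaves out 0, and that difference did not pass the adjusted test.

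KO medium against SCR medium asks whether JMJD6 in the cells that make the medium matters. Of the 7 purine genes 0 passed the limma test, where 0.27% of all genes did; at an unadjusted p below 0.05 there was 1, Nt5e, against 5.95% of all genes. Nt5e was higher in KO medium by 0.29 (SE 0.06, 95% interval 0.16 to 0.43, adjusted p = 0.106), and its 3 KO arrays were all above its 3 SCR arrays. Over the alternatives its adjusted p ran from 0.0507 to 0.39. P2ry6 was lower by 0.25 (95% interval -0.52 to 0.02, adjusted p = 0.891) and Slc29a1 by 0.13 (-0.29 to 0.03, adjusted p = 0.939), each without overlap of arrays; 3 of 7 purine genes had such groups, where 9.37% of all genes did. Slc43a3 differed by 0.22 with an interval of -0.40 to 0.83, which leaves room for a sizeable difference in either direction. That interval draws on the spread of all 4 groups. The SD of Slc43a3 was 0.74 in normal medium, beside 0.21 in SCR medium and 0.17 in KO medium. For P2rx4 (-0.13 to 0.19) and Ada (-0.16 to 0.18) the interval was narrower. Their changes from normal to SCR medium were small as well (0.23 and -0.30). The intervals thus leave room for a difference that is large beside those changes.

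CSH in SCR medium against SCR medium asks whether the blockade alters the response. Here 0 of 7 purine genes passed, as did 0% of all genes, and 0 of 7 had an unadjusted p below 0.05, where 6.24% of all genes did. The differences were -0.24 for Slc43a3 (95% interval -0.85 to 0.38), 0.13 for Slc29a1 (-0.03 to 0.29), 0.11 for Ada (-0.06 to 0.28), 0.04 for P2rx4, 0.03 for Nt5e, 0.01 for P2ry6 and -0.02 for Entpd1. No purine gene had groups of arrays without overlap, against 8.59% of all genes. With array weights 79 genes changed, none of them among the 7.

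These comparisons share the SCR arrays, and those with normal medium share its arrays. Against normal medium, the 7 measured genes changed in KO medium, 3 higher and 4 lower, where 39.1% of all genes did (21.4% higher, 17.6% lower). With CSH 6 of 7 changed, 3 higher and 3 lower, Ada being the exception, where 35.8% of all genes did (20.9% higher, 14.9% lower). In both, the arrays of all 7 lay apart from those of normal medium, as for 49.8% and 46.8% of all genes. As for SCR medium, these counts are a description. The 7 were picked with results of these arrays known, and Nt5e passed the filter only through conditioned-medium arrays. KO medium against SCR medium with CSH gave 0 of 7, beside 1.9% of all genes. These groups differ both in JMJD6 of the producing cells and in CSH, which cannot be told apart here. At an unadjusted p below 0.05 there were 2, Nt5e and Slc29a1, beside 15.7% of all genes. The arrays did not overlap for 3, the same pair and Ada, beside 21.8%. Nt5e came closest there, 0.27 higher in KO medium (SE 0.06, adjusted p = 0.0506), with no overlap of arrays. It passed under several alternatives, among them quantile normalization (adjusted p = 0.0302) and without KO replicate 2 (0.049) or SCR replicate 1 (0.0477).

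The rest of the purine network was read from 10 lists, whose 92 other genes gave 64 tested. In SCR medium 17 rose, 21 fell and 26 did not pass; the counts were 19, 22 and 23 for KO medium and 17, 21 and 26 with CSH, each against normal medium. The changed share was 59.4%, 64.1% and 59.4% of the 64, beside 35.2%, 39.1% and 35.8% of all genes tested. The lists were chosen with results of these arrays known, so these shares are a description. For each list below, the values over all genes in SCR medium were 19.3% higher, 15.8% lower and a median of 0.02. Purine salvage and breakdown held 15 tested genes, Ada included, of which 6 rose and 3 fell (35.2% of all genes changed either way), with a median of 0.03 beside 0.02 over all genes. Gda, guanine deaminase, which turns guanine into xanthine, rose from 8.99 ± 0.10 to 10.95 ± 0.14 (1.96, SE 0.09, adjusted p = 2.52e-08). Its rise over normal medium was 2.02 in KO medium and 1.94 with CSH. Ampd3, an AMP deaminase, rose by 0.74 and Nt5c, a cytosolic nucleotidase, by 0.64, while Ahcy, which releases adenosine from S-adenosylhomocysteine, fell by 0.54. Of 11 genes of purine synthesis from small precursors 5 fell and 1 rose (15.8% and 19.3% of all genes), with a median of -0.19. Prps2, which makes the ribose donor, fell by 0.76, Paics by 0.52 and Adss by 0.35, whereas Impdh1, which leads to guanine nucleotides, rose by 0.60.

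Of 6 tested genes for ATP release 3 fell and 1 rose (15.8% and 19.3% of all genes), with a median of -0.10 beside 0.02. Calhm2, a channel gene, fell by 0.46 (adjusted p = 0.000211), Panx1, the pannexin channel that passes ATP, by 0.35 and Slc17a9, the vesicular nucleotide carrier, by 0.31. Lrrc8d, a subunit of volume-regulated anion channels, rose by 0.25 (adjusted p = 0.0241). Among 9 tested genes of the inflammasome pathway that P2X7 can trigger, 2 rose and 4 fell (19.3% and 15.8% of all genes), with a median of -0.15 beside 0.02. Il1a rose by 2.06 (SE 0.16) and the caspase gene Casp4 by 1.19 (SE 0.19). Txnip, which binds thioredoxin, fell by 1.56 and Gsdmd, the pore-forming gasdermin, by 0.43. Il1b and Pycard were below the filter.

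Of 15 tested genes of cAMP signalling downstream of adenosine receptors, 4 rose and 7 fell in SCR medium (19.3% and 15.8% of all genes), with a median of -0.15 beside 0.02. Pde8a, a cAMP-degrading phosphodiesterase, rose by 0.96 (SE 0.07, adjusted p = 3.71e-07) and Prkar1a, a regulatory subunit of protein kinase A, by 0.60. Prkar2b, another regulatory subunit, fell by 0.65 and Prkacb, a catalytic subunit, by 0.62. Pde8a was the only one of the 64 to change between KO and SCR medium (1.56%, beside 0.27% of all genes). It read 9.01, 9.07 and 8.93 in normal medium, 10.03, 9.89 and 9.98 in SCR medium, 10.47, 10.41 and 10.59 in KO medium and 9.77, 9.71 and 9.69 with CSH. The 4 groups did not overlap, and KO medium exceeded SCR medium by 0.52 (SE 0.07, adjusted p = 0.00565); CSH stood 0.24 below SCR medium and did not pass (adjusted p = 0.632). Between KO medium and SCR medium with CSH, 4 of the 64 were higher in KO medium (6.25%, beside 1.9% of all genes changed either way). Named here after their values were seen, they were Pde8a by 0.77, Pde4b, another cAMP phosphodiesterase, by 0.52, Xdh, xanthine dehydrogenase, by 0.43 and Impdh1 by 0.42.

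**Figure D3:**
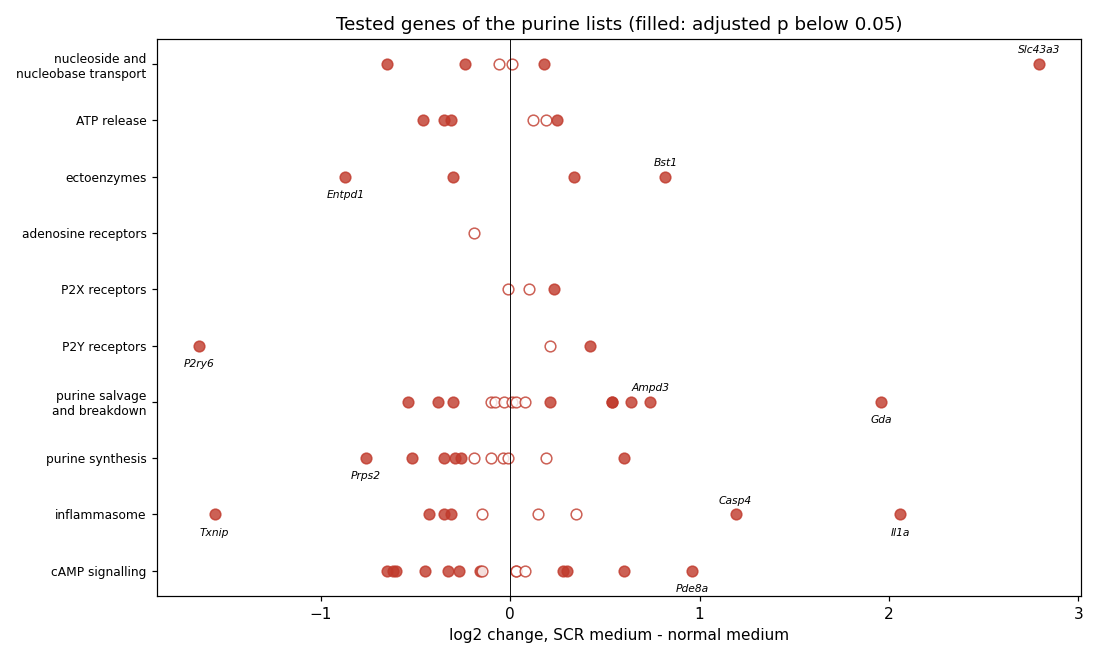
Log2 change in SCR medium against normal medium (horizontal axis) of each tested gene of 10 purine lists (rows), filled where the adjusted p was below 0.05. Genes on 2 lists appear in both rows. Slc43a3 (2.79), Il1a (2.06) and Gda (1.96) lie at the right, P2ry6 (-1.64) and Txnip (-1.56) at the left, and most other genes lie within 1 of 0.

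For the 3 purine genes that moved most, the named genes whose pattern over the 12 arrays was closest were listed by Pearson r, as a description. For Slc43a3 these were Emp2 (r = 0.995), Med21 (0.993) and Csprs (0.992). For P2ry6 they were Ly86 (0.995), Gas7 (0.995) and Cxcl16 (0.994). For Entpd1 they were Wwp1 (0.984), Phlpp1 (0.983) and Abl1 (0.981). All 12 arrays share the step between normal and conditioned medium. Over the 9 conditioned arrays alone r ran from 0.88 to 0.95 for the first trio, 0.90 to 0.94 for the second and 0.62 to 0.81 for the third.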

How the data were processed

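RNA of RAW264.7 cells was measured on 12 Affymetrix arrays. The deposited values are log2 signals. The authors used RMA, Affymetrix Expression Console and build mm10, as listed per the submitters' processing notes; a version is not given in the sources used here. Because RMA equalizes the arrays, a shift in RNA content per cell is not visible, and differences of dim genes are understated. Of 65528 probe sets, 31018 listed 1 gene, from the platform table with symbols updated through RefSeq (GRCm38.p6), and 1478 listed several and were not named. The probe set with the highest mean stood for a gene. Genes above the median of all probe sets in at least 3 arrays (18119 of 30464) entered the fit (limma 3.58.1, R 4.3.3), with group as the only term, an intensity trend and 8 residual degrees of freedom. The number of arrays limits the precision. On simulated data for 18119 genes, with SCR medium changed against normal medium, the test called 85 of 100 genes raised by a log2 of 0.58 and 97 of 100 raised by 1, plus 11 unchanged genes. Only these raised genes differed there, whereas 35.2% of genes changed in the data, and the simulated noise was independent between genes. Comparisons between conditioned media were not simulated, so these rates do not carry over to them. The genes and lists were chosen with earlier results of these data known. Named are the 7 measured genes, up to 4 further genes per list by smallest p in SCR medium, and the 3 closest patterns of the 3 largest movers; marker genes, genes below the filter and calls between conditioned media were named after their values were seen. Replicate numbers were not used to pair the samples in the main fit. Protein sequences were not used here. Alternatives were other filters, scalings, weights, blocks, probe set rules and thresholds, and each array left out. Plots used Python 3.11.15 and matplotlib 3.10.9.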

Additional observations from a re-analysis of the deposited data

How the results depend on the processing

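The counts of purine genes changed under 26 alternatives stayed at 0 for KO against SCR medium and for CSH against SCR medium. For SCR against normal medium the count of 7 became 6 to 7 with single arrays left out and 4 with a fold of at least 1.5 added, and for CSH against normal medium the count of 6 became 3 with that fold. For KO medium against CSH the count of 0 became 2 with array weights (whose iteration stopped before full convergence) and 1 with a filter of 6 arrays, quantile normalization, no intensity trend, a random replicate block or an adjusted p below 0.1, and ran from 0 to 1 with single arrays left out. Over all genes, the 49 calls of KO against SCR medium ranged from 19 to 376 and the 345 of KO medium against CSH from 72 to 654, with the split of 219 higher and 126 lower moving to 120 and 34 after median centring; the 0 calls of CSH against SCR medium reached 79; the fold of at least 1.5 cut the others from 6369 to 1676, from 7079 to 2077 and from 6493 to 1628. Of 12 pairs of arrays with the same replicate number, 5 had deviations correlated above 0.1. Their r ran from -0.065 to 0.295, beside -0.234 to 0.211 for pairs with different numbers. Of the 12 arrays, 5 correlated best with an array of their own number. Whether arrays of the same number share a batch was not tested. With the replicate block, 6 purine genes changed in SCR medium, P2rx4 (0.2, adjusted p = 0.0766) not passing, and 214 genes differed between KO medium and CSH. No change past the threshold reversed. Where purine genes crossed the threshold, the cause was not tested. Array number limits small differences, and Nt5e lies near background.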
